A study of Mus musculus with 5 samples.

Results

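Netrins and slits are secreted guidance proteins. The genes described here are the netrin genes Ntn1 and Ntn4 and the slit genes Slit2 and Slit3. With them are the ROBO family receptor genes Robo1, Robo2 and Robo4, and the netrin receptor genes Unc5b and Unc5c. They were taken by symbol from the count tables, 9 genes of 20355 listed, and were followed across cell classes named by marker genes. The cells came from the colon mesenchyme, the connective tissue under the gut lining, of untreated C57/BL6 mice aged 10 weeks, with no genetic change named in the labels. The lining was stripped with EDTA and DTT, and Collagenase XI with Dispase freed the remaining cells. RNA was read by Drop-seq, in which cells are caught in droplets with barcoded beads and every RNA copy carries its own tag, the UMI, by which copies are counted. There were 2 biological replicates, collected in 5 droplet runs: 1A and 1B for the first, and 2A, 2B and 2C for the second. The labels give 1 group and no contrast of conditions, and they do not say how many animals make a replicate. The p-values therefore rest on how differences between classes vary over 2 biological replicates, and not on a known number of animals.

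Netrins are laminin-related proteins of the extracellular matrix. They attract or repel growing axons and migrating cells through receptors of the DCC and UNC5 families, and they also act on blood and lymphatic vessels. Slits are large secreted proteins that bind ROBO receptors and are best known for repelling axons at the midline of the nervous system. Robo4 is the ROBO family member known from endothelium, and Unc5b is a netrin receptor that is also known from endothelial tip cells.

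The tables held 7935 barcodes, of which 5985 had 300 or more genes and at most 10% mitochondrial UMIs and were not marked as doublets. The median retained cell had 1330 UMIs and 757 genes. Over these cells the 9 genes had from 24 UMIs (Unc5c) and 29 UMIs (Slit2) to 541 UMIs (Robo4) and 618 UMIs (Slit3), so Slit2 and Unc5c could be described only as counts. The marker genes named 10 classes that had 20 or more cells per replicate: 3131 fibroblast-like cells, 575 blood endothelial-like, 478 macrophage-like, 390 T, natural killer or innate lymphoid-like, 298 enteric glia-like, 240 smooth muscle-like, 239 pericyte-like, 228 B-like, 166 lymphatic endothelial-like and 120 dendritic-like cells. Enteric neuron-like (27), plasma-like (42) and epithelial-like (22) cells and 1 unnamed cycling cluster (29) were too few to test. At most 7 barcodes were shared by any pair of collections.

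On GRCm38, the assembly also called mm10, GENCODE M21 places Ntn1 on the minus strand of chromosome 11 (68209364 to 68400823) and Ntn4 on the plus strand of chromosome 10 (93640681 to 93747207). Slit2 lies on chromosome 5 (47983138 to 48307733) and Slit3 on chromosome 11 (35121224 to 35708507), both on the plus strand. Robo1 (72308306 to 73046095, plus strand) and Robo2 (73891839 to 74411825, minus strand) both lie on chromosome 16. Robo4 is on the plus strand of chromosome 9 (37401897 to 37415115) and is the shortest of the 9, at 13.2 kb against 69.0 kb for Unc5b (minus strand of chromosome 10, 60762593 to 60831581) and 369.7 kb for Unc5c (plus strand of chromosome 3, 141465216 to 141834924). Robo4 overlaps no other annotated gene. The other 8 genes overlap from 1 to 7 others, among them antisense genes of Ntn4, Slit2 and Unc5c, and reads of such pairs could not be told apart.

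The bases just before the start of Robo4 and Unc5b are shown because their base composition differs. Both genes were read in endothelial-like cells, and Unc5b also in fibroblast-like cells. Sequences are from RefSeq on GRCm38.p6, which held 8 of the 9 genes, and run 5′ to 3′ on the gene's strand with each CG in capitals. Only bases ahead of the first annotated base of the gene are printed, 175 for Robo4 (chr9:37401722-37401896, plus strand) and 250 for Unc5b (chr10:60831582-60831831, minus strand).
Robo4: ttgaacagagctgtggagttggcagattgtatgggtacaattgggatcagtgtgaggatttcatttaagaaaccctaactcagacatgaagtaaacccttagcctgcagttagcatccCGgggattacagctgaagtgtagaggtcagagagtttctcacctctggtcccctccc
Unc5b: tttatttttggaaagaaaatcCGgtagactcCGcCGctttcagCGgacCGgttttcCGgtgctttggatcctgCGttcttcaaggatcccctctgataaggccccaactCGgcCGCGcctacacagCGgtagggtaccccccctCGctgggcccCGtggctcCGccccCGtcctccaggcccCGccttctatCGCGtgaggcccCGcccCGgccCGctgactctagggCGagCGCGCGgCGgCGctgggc
The Robo4 stretch held 1 CG and 47.4% G or C, and the Unc5b stretch held 27 CG and 66.8% G or C. Over 32851 RefSeq promoters, stretches of the same lengths had a median of 3 and 6 CG, and 86.8% and 92.1% of them held at least 1. In the 250 bases before their starts, Slit3 had 35 CG, Ntn4 had 26, Slit2 had 25, Unc5c had 23 and Robo1 had 11, and the 3 starts of Robo2 had 8, 4 and 14. At that same length of 250 bases, Robo4 had 2 CG and 49.6% G or C. These counts describe the letters of the sequences.

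UMI counts were summed per replicate and class and compared with edgeR's quasi-likelihood test, each class against the mean log level of the other 9, with p adjusted by Benjamini-Hochberg over 6931 genes. Levels are given as CPM, the UMIs of a gene in 1000000 UMIs of the same sum. Ntn1, Ntn4, Slit3, Robo2 and Robo4 passed the filter on low counts, and Slit2, Robo1, Unc5b and Unc5c did not. Of the 50 pairs of a tested gene and a class, 13 (26.0%) were called higher, where 23.2% of all 69310 gene and class pairs were, and 3 (6.0%) were called lower, where 13.4% were. A gene that passed the filter through the class where it is high had to differ, so these shares describe the genes and support nothing further. The count of 13 higher calls fell to 6 with sums per collection and to 7 with UMIs split so that clusters and sums came from separate UMIs, where 8 classes were formed. With sums per collection, 21 single results of the 9 genes kept their side of the threshold, 1 passed it newly and 0 lost it. The remaining results had no value there, so that fall counts untested genes and not lost calls. The count of 3 lower calls fell to 0 without collection 1B and to 1 without 2A or without 2C. Fewer cells of a kind within a class and less RNA per cell cannot be told apart in such sums.

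**Figure D1:**
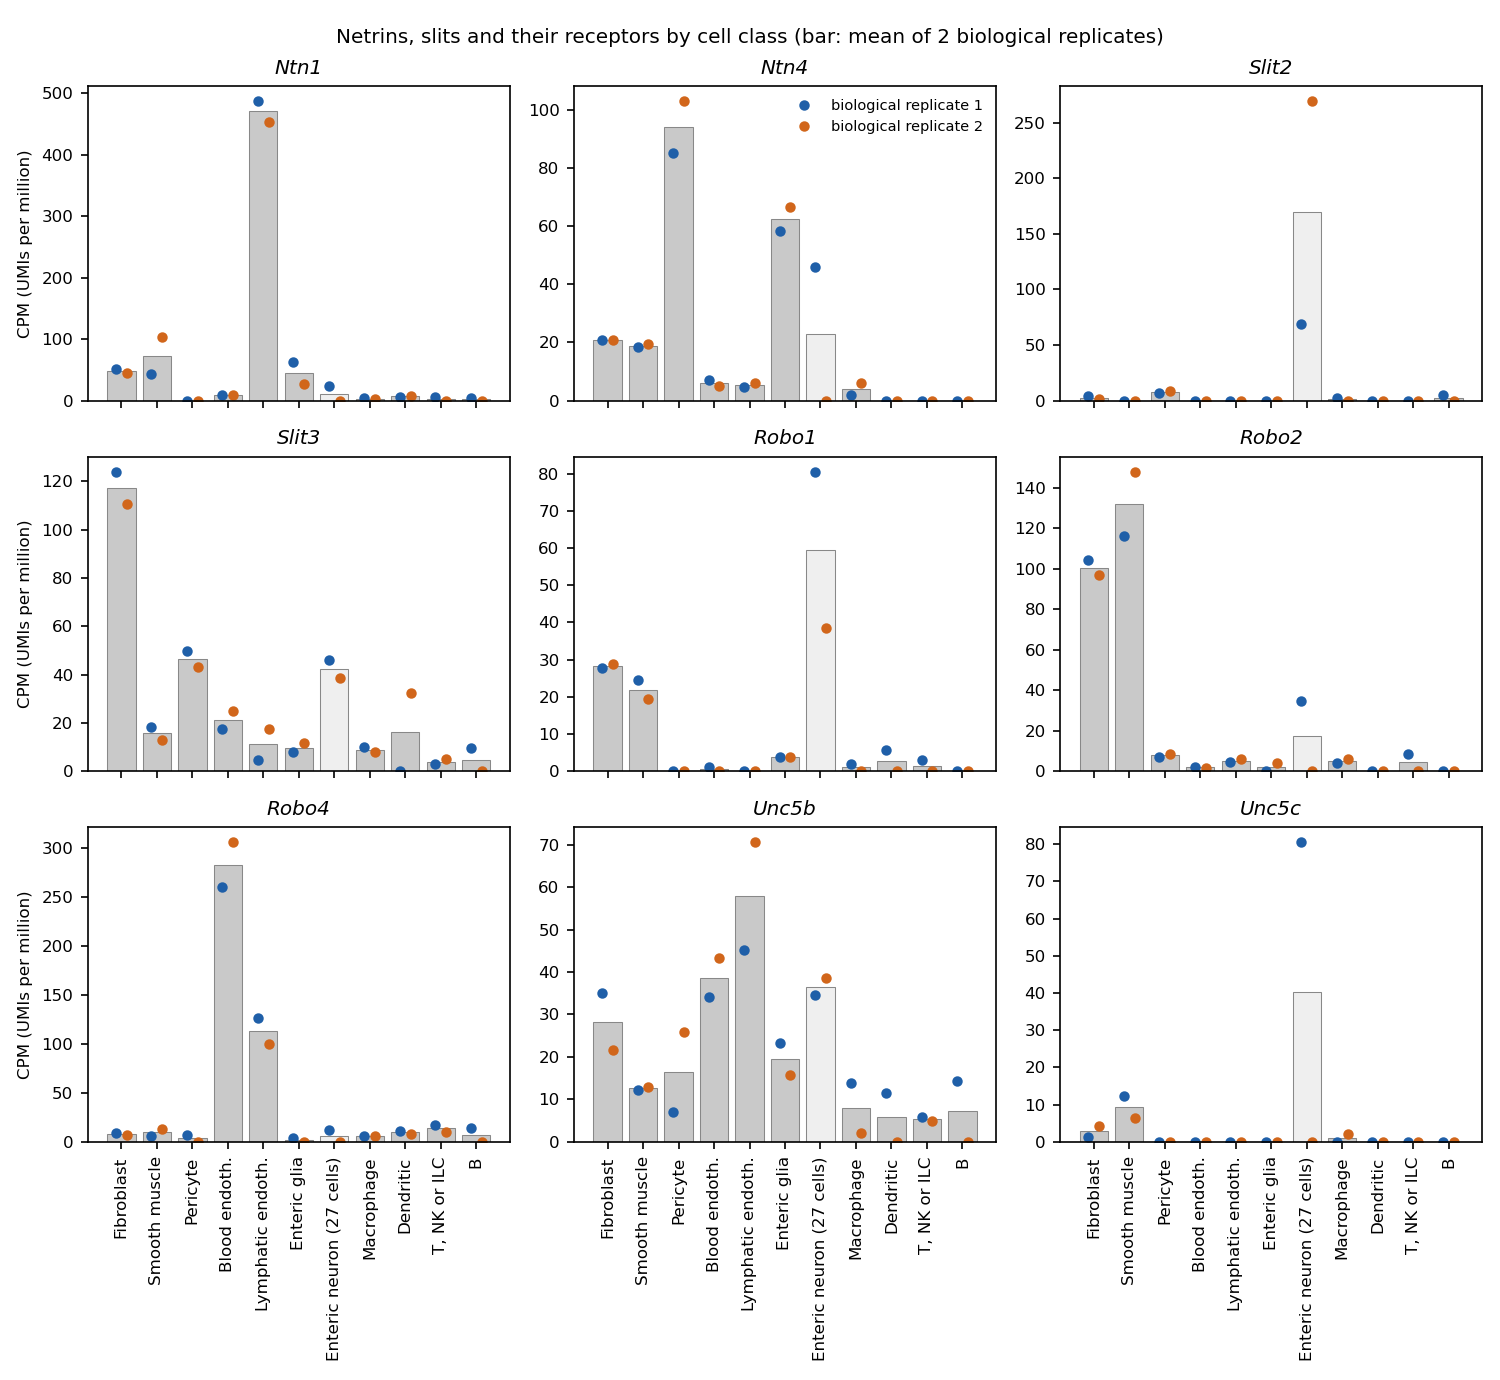
Level of each gene (vertical axis, CPM, linear from 0, scaled per gene) in 11 cell classes. Bars are means of the 2 biological replicates and points are the replicates, with the pale bar marking the 27 enteric neuron-like cells that were not tested. Ntn1 stands highest in lymphatic endothelial-like cells (470.3 CPM), Robo4 in blood endothelial-like cells (283 CPM), Ntn4 in pericyte-like cells (94.2 CPM) and Slit3 in fibroblast-like cells (117 CPM).

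Ntn1, the classical netrin, was read mainly in the lymphatic endothelial-like cells, which line the vessels that drain tissue fluid. Its level there was 412, 596, 277, 498 and 597 CPM in collections 1A, 1B, 2A, 2B and 2C. Every collection was above every collection of every other class, where the highest value was 163 CPM. At least 1 Ntn1 UMI was found in 44.0% of the 166 lymphatic endothelial-like cells (exact 95% binomial interval 36.3% to 51.9%) and in 2.26% of the 575 blood endothelial-like cells (1.21% to 3.84%), at median depths of 1529.5 and 1855 UMIs. With 500 UMIs drawn from each cell, over 159 and 557 cells deep enough, the shares were 16.98% and 0.539%. The next levels were 72.9 ± 42.6 CPM (SD, n = 2) in smooth muscle-like cells, 47.9 ± 3.83 CPM in fibroblast-like cells, with 44.8 ± 24.6 CPM in enteric glia-like cells. Neighbours in that run of 3 overlapped between replicates and were not called apart (adjusted p = 0.58 and 0.71). Ntn1 was called higher in all 4 of these classes, with adjusted p of 2.8e-107, 1.0e-06, 5.7e-14 and 0.00013 in the order given. The fibroblast and glia calls hold for the mean of logs only. In CPM both classes were below the mean of their other classes, which was 68.0 and 68.3 CPM. With UMIs split, no pericyte class was formed, and Ntn1 in the smooth muscle class turned to a log2 fold change of -1.06.

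The 8 fibroblast markers summed to 2001 and 3084 CPM in the glia-like cells and to 7969 and 9865 CPM in the smooth muscle-like cells, against 32322 and 30172 CPM in the fibroblast-like cells. Robo2, with 458 UMIs in fibroblast-like cells, had 1 UMI in the glia-like cells, which had 23 UMIs of Ntn1. In the smooth muscle-like cells Slit3 was at 15.6 CPM against 117 CPM in fibroblast-like cells. What fibroblast RNA adds to Ntn1 in glia-like and smooth muscle-like cells was not tested. The 239 pericyte-like cells held no Ntn1 UMI among 257138, which allows a level of up to 11.7 CPM at a floor of 3 counts. At a median of 942 UMIs per cell, the share of pericyte-like cells with an Ntn1 UMI was at most 1.53% (exact 95% binomial interval), which limits detection and not the share of cells that express the gene. The pericyte class was called lower (adjusted p = 0.027), a call that was lost under 11 of 17 alternatives, among them the fits without collection 1A, without 1B and without 2A (adjusted p = 1, 0.090 and 0.063). In the remaining 5 tested classes Ntn1 was at 2.38 to 8.82 CPM.

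Ntn4, a netrin that binds laminin in basement membranes, had another order. It was highest in the pericyte-like cells, the contractile cells wrapped around small vessels, at 95.9, 76.7, 177, 57.7 and 54.7 CPM in 1A, 1B, 2A, 2B and 2C. The enteric glia-like cells, the support cells of the gut's nerve plexus, followed at 38.4, 78.6, 74.1, 87.7 and 43.3 CPM. The means were 94.2 ± 12.7 and 62.5 ± 5.90 CPM (SD, n = 2), and although the 2 replicates of one class were above those of the other, the collections overlapped and the classes were not called apart (log2 difference 0.40 ± 0.49, adjusted p = 0.62). Fibroblast-like cells had 20.9 ± 0.194 CPM, below the glia-like cells by 1.49 ± 0.41 on the log2 scale (adjusted p = 0.0012), and smooth muscle-like cells had 18.8 ± 0.686 CPM. No Ntn4 UMI was found in dendritic-like cells, B-like cells and the lymphoid class of T, natural killer and innate cells. Ntn4 was called higher in pericyte-like (adjusted p = 6.7e-12), glia-like (4.2e-12) and fibroblast-like cells (6.5e-06). The fibroblast call holds for the mean of logs, which includes the classes without a UMI. In CPM the fibroblast-like cells, at 20.9, were not above the mean of the other classes, at 21.2. The pericyte call was lost with a minimum of 500 genes per cell (adjusted p = 0.14) and with a mitochondrial limit of 5% (0.073).

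Slit3 was highest in the fibroblast-like cells. It stood at 127, 120.0, 127, 116 and 87.8 CPM in collections 1A, 1B, 2A, 2B and 2C, a mean of 117 ± 9.44 CPM (SD, n = 2). The fibroblast-like cells gave 86.4% of all Slit3 UMIs. The log2 fold change against the mean of the other classes was 3.43 ± 0.22 (adjusted p = 1.3e-51), and it stayed between 3.08 and 4.15 under all alternatives run. Pericyte-like cells came next at 46.3 ± 4.76 CPM, below the fibroblast-like cells by 1.60 ± 0.43 on the log2 scale (adjusted p = 0.0013), with 0 CPM in 1A and 89.5, 44.4, 57.7 and 27.3 CPM in 1B, 2A, 2B and 2C. Slit3 was called higher in the pericyte-like cells (1.66 ± 0.58, adjusted p = 0.023), but not without collection 1B (1.37, adjusted p = 0.30) or under 4 other alternatives. The 8 fibroblast markers summed to 3459 and 3292 CPM in the pericyte-like cells, and their part in the Slit3 level was not tested. Blood endothelial-like cells had 21.3 ± 5.19 CPM and were not called. The lower call in the lymphoid class of T, natural killer and innate cells rested on 2 UMIs and was lost under 9 of 17 alternatives, without 1B, without 2A and without 2C among them (adjusted p = 1, 0.057 and 0.059).

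Slit2 was found as 29 UMIs. The 27 enteric neuron-like cells held 13 of them, in 8 cells, 6 of 86921 UMIs in replicate 1 and 7 of 25960 UMIs in replicate 2. The replicates were therefore far apart, at 69.03 and 269.6 CPM, and the pooled level of 115 CPM had an exact 95% Poisson interval of 61.3 to 197 CPM, which covers counting error and leaves replicate 2 outside it. The 3131 fibroblast-like cells held 12, or 2.63 CPM (1.36 to 4.60). No Slit2 UMI was found in 1567367 UMIs of blood endothelial-like cells, which allows up to 1.91 CPM at the floor of 3 counts. The 2 intervals, for neuron-like and fibroblast-like cells, did not overlap, but the neuron-like class had 7 cells in replicate 2 and none in collection 2B and was not tested.

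**Figure D2:**
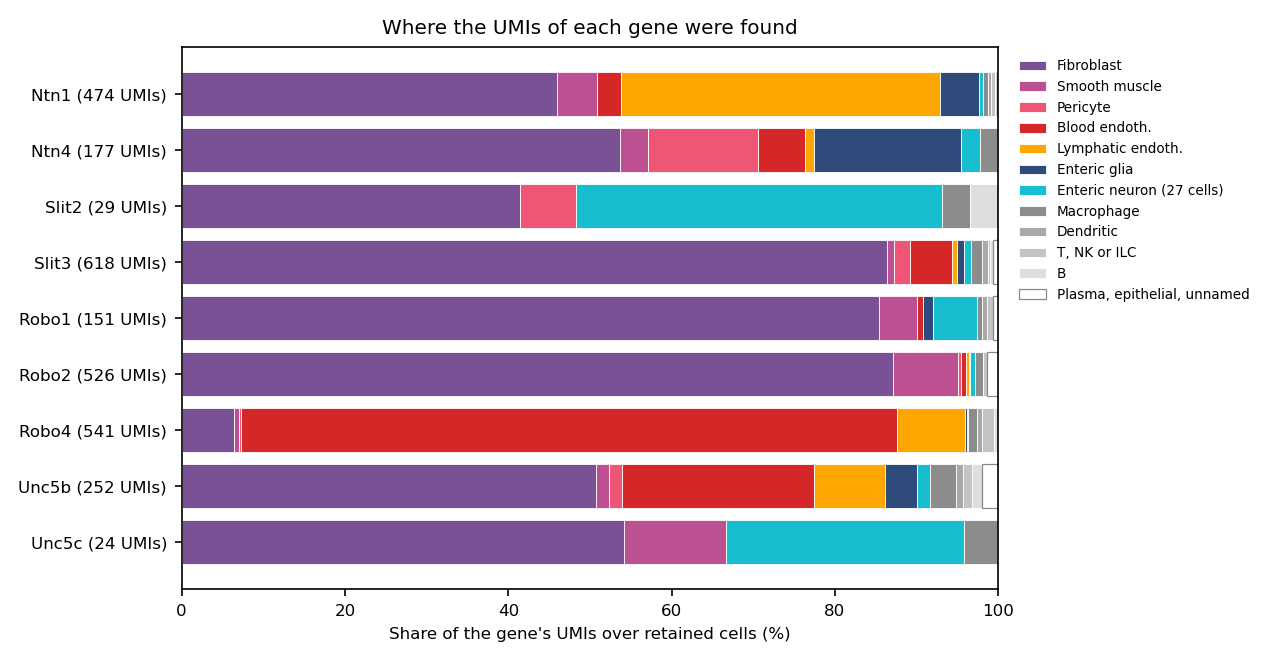
Share (horizontal axis, percent) of the UMIs of each gene that fell in each cell class, over all retained cells, with the number of UMIs beside the gene's name. Shares follow the number and depth of cells in a class as well as the level. Fibroblast-like cells gave 86.4% of the Slit3, 85.4% of the Robo1 and 87.1% of the Robo2 UMIs, and blood endothelial-like cells gave 80.4% of the Robo4 UMIs.

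Among the ROBO family genes, Robo1 and Robo2 were read in fibroblast-like and smooth muscle-like cells, and Robo4 in endothelial-like cells. Robo2 was at 95.5, 116, 95.6, 108 and 87.8 CPM in the fibroblast-like cells of 1A, 1B, 2A, 2B and 2C, and at 162, 64.8, 166, 184 and 75.0 CPM in the smooth muscle-like cells. The ranges overlapped, and the classes were not called apart (log2 difference of smooth muscle-like from fibroblast-like cells 0.17 ± 0.27, adjusted p = 0.76). All other tested classes were at 7.85 CPM or less, with no UMI in dendritic-like and B-like cells. Robo2 was called higher in fibroblast-like (adjusted p = 2.5e-72) and smooth muscle-like cells (1.0e-25), and the second call was lost with UMIs split (adjusted p = 0.17), where no pericyte class was formed.

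Robo1, which did not pass the filter, followed the same classes at a lower count. It had 129 UMIs in fibroblast-like cells (28.3 ± 0.646 CPM) and 7 in smooth muscle-like cells (21.9 ± 3.64 CPM), and at most 2 UMIs in any other tested class. The 27 enteric neuron-like cells held 8 Robo1 UMIs in 3 cells (70.9 CPM, exact 95% Poisson interval 30.6 to 140), of which 255 CPM in collection 1B stood far above 15.8 CPM in 1A and 77.4 CPM in 2A. In the fit without the filter, Robo1 was called higher in fibroblast-like (adjusted p = 2.7e-19) and smooth muscle-like cells (0.0011). The smooth muscle-like cluster also had 5 of the 8 fibroblast markers raised. What fibroblast RNA adds to Robo1 and Robo2 there was not tested.

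Robo4 was highest in the blood endothelial-like cells. Its level was 272, 246, 304, 289 and 326 CPM in collections 1A, 1B, 2A, 2B and 2C there, and 122, 132, 97.7, 145 and 66.3 CPM in the lymphatic endothelial-like cells. The 2 sets of values did not overlap, and all other classes were at 40.8 CPM or less in every collection. The log2 fold change was 4.92 ± 0.23 in blood endothelial-like cells (adjusted p = 8.1e-103) and 3.28 ± 0.39 in lymphatic endothelial-like cells (adjusted p = 9.4e-16). Robo4 UMIs were found in 38.1% of blood endothelial-like cells (exact 95% interval 34.1% to 42.2%), in 20.5% of lymphatic endothelial-like cells (14.6% to 27.4%) and in 1.09% of fibroblast-like cells (0.753% to 1.51%), at median depths of 1855, 1529.5 and 1287 UMIs. With 500 UMIs drawn per cell the shares were 11.7%, 6.92% and 0.298%. A lower call in glia-like cells rested on 1 UMI and was lost under 8 of 18 alternatives, without 1B, 2B or 2C among them (adjusted p = 1, 0.051 and 0.072).

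Unc5b, a netrin receptor, was spread over more classes and passed no filter on low counts among the classes. Lymphatic endothelial-like cells had 22 UMIs (57.9 ± 18.0 CPM), blood endothelial-like cells 59 (38.7 ± 6.41 CPM), fibroblast-like cells 128 (28.3 ± 9.60 CPM) and glia-like cells 10 (19.5 ± 5.40 CPM). By collection, the lymphatic endothelial-like values were 30.6, 66.2, 130.3, 41.5 and 33.2 CPM in 1A, 1B, 2A, 2B and 2C, and the blood endothelial-like values were 37.8, 30.2, 45.1, 47.2 and 36.2 CPM. These ranges overlapped. In the fit without the filter, Unc5b was called higher in blood endothelial-like (log2 fold change 1.69 ± 0.33, adjusted p = 3.2e-06), lymphatic endothelial-like (1.89 ± 0.45, adjusted p = 0.00042) and fibroblast-like cells (1.08 ± 0.28, adjusted p = 0.0010).

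Unc5c, the other netrin receptor listed, was at the edge of detection with 24 UMIs among the 10177102 of retained cells. The 667 barcodes left out for over 10% mitochondrial UMIs held 10 more among 905687. That is 11.04 CPM (exact 95% Poisson interval 5.29 to 20.3), and these UMIs are not part of the levels here. The fibroblast-like cells held 13 (2.85 CPM, exact 95% Poisson interval 1.52 to 4.88), the enteric neuron-like cells 7 in 4 cells (62.0 CPM, 24.9 to 128), and the smooth muscle-like cells 3. The 7 neuron-like UMIs all came from replicate 1, whose 20 cells had 86921 UMIs against 25960 in the 7 cells of replicate 2. No Unc5c UMI was seen in blood endothelial-like cells, which allows up to 1.91 CPM.

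Lymphatic and blood endothelium were then set against each other. Of the 5 tested genes, Robo4 was higher in the blood endothelial-like cells, by 1.48 ± 0.29 on the log2 scale (adjusted p = 2.0e-06), where 22.2% of all genes were called higher, and Ntn1 was lower there, at -5.51 ± 0.30 (adjusted p = 1.1e-71), where 16.3% of all genes were called lower. Both held in all 12 alternatives, from 1.30 to 1.69 for Robo4 and from -6.71 to -5.30 for Ntn1. Slit3 (1.16 ± 0.76, adjusted p = 0.23), Ntn4 (0.48 ± 1.16) and Robo2 (-1.14 ± 1.36) were not called, at 32 or fewer UMIs per class. For Unc5b the log2 difference of blood from lymphatic endothelial-like cells was -0.18 ± 0.43 in the fit without the filter (adjusted p = 0.99). The 8 blood endothelial markers, some of them known from all endothelium, summed to 2320 and 2549 CPM in the lymphatic endothelial-like cells against 7521 and 8613 CPM in the blood endothelial-like cells, and the 6 lymphatic markers to 25322 and 23728 CPM against 92.1 and 79.8 CPM. What blood endothelial RNA adds to Robo4 in the lymphatic endothelial-like cells was not tested.

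**Figure D3:**
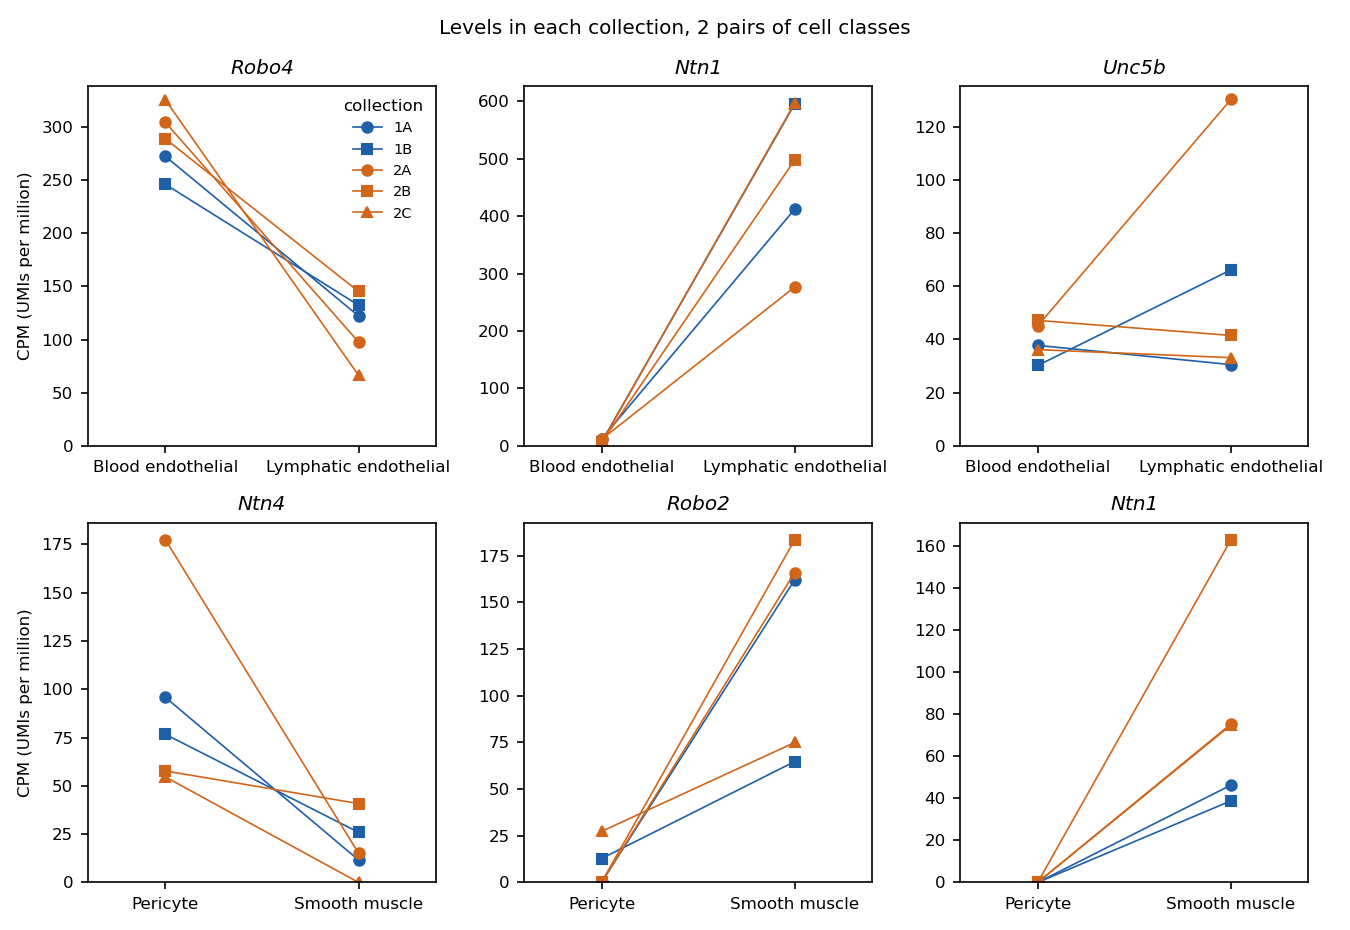
Levels (vertical axis, CPM, linear from 0) in each collection, joined by lines, for Robo4, Ntn1 and Unc5b in blood and lymphatic endothelial-like cells (upper row) and for Ntn4, Robo2 and Ntn1 in pericyte-like and smooth muscle-like cells (lower row). All 5 lines fall for Robo4 and rise for Ntn1 from blood to lymphatic, while those of Unc5b cross, with 130.3 CPM in 2A standing apart.

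The pericyte-like and smooth muscle-like cells also differed. The markers do not tell smooth muscle of vessels from that of the gut wall. The pericyte-like cluster also had 5 of the 6 smooth muscle markers raised. Ntn4 was higher in the pericyte-like cells by 2.24 ± 0.68 on the log2 scale (94.2 against 18.8 CPM, adjusted p = 0.010), where 7.79% of all genes were called higher. Robo2 was lower there, at -4.09 ± 0.73 (7.85 against 132 CPM, adjusted p = 7.8e-07), and so was Ntn1 (0 UMIs against 23, adjusted p = 3.1e-05), where 7.66% of all genes were called lower. Slit3 (1.504 ± 0.802, adjusted p = 0.22) and Robo4 (-1.27 ± 1.63, adjusted p = 0.70) were not called. With sums per collection 1 of the 3 calls was made, and the others had no value there. The Ntn4 call was lost without collection 1A (2.00, adjusted p = 0.086), without 2A (1.84, adjusted p = 0.13) and without the cells of highest doublet score (1.83, adjusted p = 0.089). The 6 smooth muscle markers summed to 4779 and 3722 CPM in the pericyte-like cells and to 12036 and 9504 CPM in the smooth muscle-like cells, and the part of shared RNA was not tested.

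The fibroblast-like cells were clustered again without the guidance genes, which gave 5 clusters that all had at least 20 cells in each replicate. Cluster 1 (1426 cells, led by Edil3, Tnfsf13b and Serpina3n) and cluster 2 (592 cells, led by Pcolce2, Pi16 and Has1) had 3 and 6 raised markers of a list of 7 for adventitial or submucosal fibroblasts, which lie around vessels and below the mucosa. Cluster 4 (343 cells, led by Sox6, Bean1 and Procr) and cluster 5 (256 cells, led by Plau, Stc1 and Slco4a1) had 4 and 5 raised markers of a list of 6 for subepithelial fibroblasts, which lie against the gut lining. Clusters 1, 2 and 4 also had 1, 3 and 1 raised markers of a list of 4 for lamina propria fibroblasts, and where the cells lay was not measured. Cluster 3 (514 cells, led by Niacr1, Serpina3g and Rasl11a) stayed unnamed. When all cells were clustered, the leading genes of cluster 1 were divided. Serpina3n was among those of a cluster of 715 cells, and Edil3 and Tnfsf13b among those of another of 681 cells. Whether cluster 1 joins these 2 was not tested. Among 6971 genes tested, 6 of the 9 passed the filter, and of 30 pairs 11 (36.7%) were called higher and 7 (23.3%) lower, where 12.8% and 9.17% of all gene and cluster pairs were. A gene that passed the filter through the clusters where it is high, such as Ntn4, had to differ here too. The contrasts of 1 gene also depend on each other, so these shares describe the genes and support nothing further. For all genes the share called higher was 12.6%, 18.7%, 7.86%, 9.22% and 15.6% in clusters 1, 2, 3, 4 and 5, and the share called lower was 14.5%, 11.9%, 1.12%, 10.3% and 8.06%. The 11 higher calls fell to 6 without collection 1A, to 6 with DESeq2, to 5 with sums per collection, to 6 with UMIs split (4 clusters) and to 6 at a resolution of 0.3 (3 clusters). The number of lower calls was 7 without any 1 collection, and it fell to 3 with sums per collection and to 4 with UMIs split. With sums per collection 0 single results of the 9 genes were lost, and the missing calls had no value there. Since clusters and tests used the same cells, these p-values are smaller than in independent cells.

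**Figure D4:**
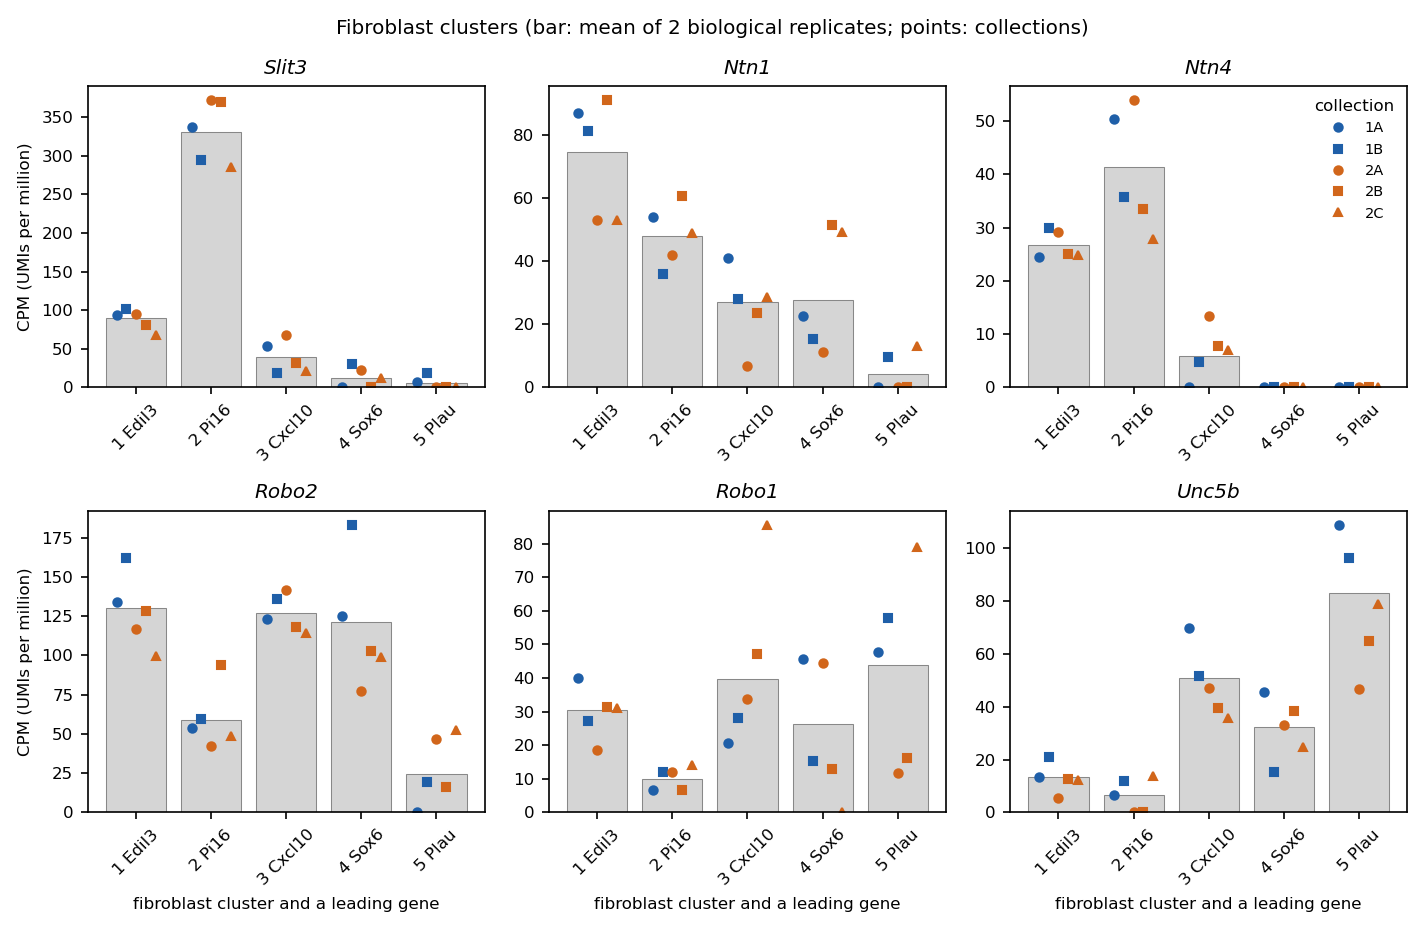
Levels (vertical axis, CPM, linear from 0, scaled per gene) in the 5 fibroblast clusters, each named by number and a leading gene. Bars are means of the 2 biological replicates and points are the 5 collections. Slit3 peaks in cluster 2 (331 CPM) and Unc5b in cluster 5 (83.3 CPM), and Ntn4 has no UMI in clusters 4 and 5.

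The ligands were highest in clusters 1 and 2. Slit3 was at 337, 294, 371, 369.5 and 286 CPM in cluster 2 in collections 1A, 1B, 2A, 2B and 2C, and every one of these values was above every value of the other clusters, where the highest was 102 CPM. It fell from 331 ± 19.0 CPM in cluster 2 (SD, n = 2) through 89.8 ± 10.4 in cluster 1, 39.0 ± 2.64 in cluster 3 and 12.5 ± 0.697 in cluster 4 to 5.99 ± 8.46 CPM in cluster 5. Fitted log2 fold changes were 3.89 ± 0.20 in cluster 2 (adjusted p = 1.5e-24), 1.31 ± 0.27 in cluster 1 (adjusted p = 8.5e-05), -2.25 ± 0.59 in cluster 4 (adjusted p = 0.0039) and -3.06 ± 0.62 in cluster 5 (adjusted p = 8.2e-05). The call in cluster 1 holds for the mean of logs, since the mean of the other clusters was 97.0 CPM. At a clustering resolution of 0.3, cluster 1 turned to -0.16 and cluster 2 kept its call (2.97). In cluster 2, 38.0% of the cells had a Slit3 UMI.

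Ntn4 was at 50.5, 35.8, 53.9, 33.6 and 27.9 CPM in cluster 2 and at 24.5, 30.03, 29.1, 25.1 and 24.9 CPM in cluster 1, so the ranges overlapped. Cluster 3 had 5 Ntn4 UMIs, and clusters 4 and 5 had none in 402673 and 473564 UMIs, which allows up to 7.45 and 6.33 CPM at the floor of 3 counts. It was called higher in clusters 2 (adjusted p = 7.2e-08) and 1 (adjusted p = 9.8e-05), the second of which was lost at a resolution of 0.3 (adjusted p = 0.085). Ntn1 was at 86.9, 81.1, 53.0, 90.8 and 52.8 CPM in cluster 1, at 35.8 to 60.5 CPM in cluster 2 and at 0 to 13.1 CPM in cluster 5. Its log2 fold change was 1.69 ± 0.28 in cluster 1 (adjusted p = 1.4e-06), 1.12 ± 0.34 in cluster 2 (adjusted p = 0.0076) and -3.05 ± 0.70 in cluster 5 (adjusted p = 0.00049). The call in cluster 2 was lost without collection 1A (adjusted p = 0.063), with DESeq2 (0.11) and at a resolution of 0.3 (0.40). Of the 12 Slit2 UMIs in fibroblast-like cells, 10 were in cluster 2, 7 from replicate 1 and 3 from replicate 2.

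Among the receptors, Unc5b and Robo1 had their highest mean levels in cluster 5 and their lowest in cluster 2, and Robo2 had its highest in cluster 1 and its lowest in cluster 5. Unc5b was at 109, 96.5, 46.9, 65.0 and 78.8 CPM in cluster 5 in 1A, 1B, 2A, 2B and 2C, at 35.6 to 69.7 CPM in cluster 3, and at 0 to 13.9 CPM in cluster 2. The ranges of clusters 5 and 3 overlapped, and those of clusters 5 and 2 did not. The log2 fold change was 2.23 ± 0.33 in cluster 5 (adjusted p = 1.8e-07), 1.29 ± 0.31 in cluster 3 (adjusted p = 0.0021), -1.41 ± 0.35 in cluster 1 (adjusted p = 0.0014) and -2.33 ± 0.46 in cluster 2 (adjusted p = 3.4e-05). The call in cluster 3 was lost without 1A (adjusted p = 0.084), with DESeq2 (0.092) and with UMIs split (0.105), and that in cluster 1 at a resolution of 0.3 (0.27).

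Robo2 had like levels in clusters 1, 3 and 4, of 130.3 ± 21.9, 127 ± 2.77 and 121 ± 40.7 CPM, which overlapped between replicates. Cluster 2 was lower at 58.7 ± 3.16 CPM and cluster 5 at 24.2 ± 22.9 CPM. Calls were made in clusters 1 (0.78 ± 0.19, adjusted p = 0.0010), 3 (1.04 ± 0.22, adjusted p = 0.00037) and 5 (-1.95 ± 0.38, adjusted p = 4.9e-05). DESeq2 did not call cluster 1 (adjusted p = 0.059), and with UMIs split clusters 3 and 5 were not called (0.088 and 0.096). At a resolution of 0.3 cluster 3 was not called (0.42). Robo1 was lowest in cluster 2, at 6.72 to 13.9 CPM by collection (-1.67 ± 0.45, adjusted p = 0.0025). Its higher call in cluster 5 (1.10 ± 0.42, adjusted p = 0.044) was lost under 7 of 10 alternatives, among them the fit without the replicate block (adjusted p = 0.051) and those without 1A, 1B, 2B or 2C, and collections of cluster 5 ran from 11.7 to 78.8 CPM.

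In the blood endothelial-like cells, 4 of 5 clusters had enough cells to test, and of the 9 genes only Robo4 passed the filter. Robo4 was at 369 ± 22.9 CPM in cluster 3 (98 cells, led by Rgs5, Stk32c and Apln) and 338 ± 6.51 in cluster 1 (185 cells, led by Enpp6, Bpgm and Plau). Cluster 4 (82 cells, led by Ifit1 and other interferon-induced genes) was at 195 ± 10.4 CPM. Cluster 2 (178 cells, led by Gm24270, Gm23935 and Lars2, with 3 of 7 arterial markers raised) was at 192 ± 31.7 CPM. The mean mitochondrial share was 6.52% in cluster 2, against 5.79%, 4.01% and 4.64% in clusters 1, 3 and 4. Its part in the Robo4 level was not tested. None of the 4 differences from the mean of the other clusters was called by edgeR, where 5.26% of all gene and cluster pairs were called higher and 3.84% lower, and DESeq2 called 0. All 4 unadjusted p were under 0.05 (0.028, 0.033, 0.0029 and 0.044 for clusters 1, 2, 3 and 4), but these contrasts of 1 gene in 1 fit depend on each other and are not 4 separate results. At a resolution of 0.3, where 2 clusters were tested, the difference in cluster 1 turned from 0.48 to -0.46. The difference in cluster 3 (0.55 ± 0.18, adjusted p = 0.0502) passed the threshold without 1B (0.044), without 2B (0.036), with sums per collection (0.015) and without the cells of highest doublet score (0.011). Its cells had a median of 5099 UMIs, and the 6 pericyte markers summed to 624 and 393 CPM there against 37.3 to 214 CPM in clusters 1, 2 and 4. Their part in the Robo4 level was not tested. The share of cells with a Robo4 UMI was 77.6% in cluster 3 and 32.4% in cluster 1 as measured, and 16.5% and 13.2% with 500 UMIs drawn per cell. The fifth cluster, with 5 of 6 venular markers raised and 32 cells, had 13 Robo4 UMIs and was not tested.

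For each gene with at least 50 UMIs over the tested classes, the genes of most similar level over the 10 classes were found by Pearson's r of log2(mean CPM + 10). Robo4 was nearest to Erg (0.99), Shank3 (0.99) and Arhgef15 (0.98), of which Erg is an endothelial transcription factor gene. Ntn4 was nearest to Cspg4 (0.98), Sox5 (0.97) and Egflam (0.96), and Cspg4 codes for the NG2 proteoglycan and was itself a pericyte marker used for naming. Ntn1 was nearest to Rftn2 (0.94), Gm1673 (0.93) and Mical3 (0.93). Robo2 was nearest to Mab21l2 (0.98), Mfap5 (0.98) and Fgf7 (0.98), and Robo1 to Ogn (0.98), Ereg (0.98) and Adamdec1 (0.97). Slit3 was nearest to Tubb2b (0.93), Cygb (0.93) and Gm7676 (0.92), and Unc5b to Ramp2 (0.97), Nfib (0.97) and Cpd (0.96). The 10 points come from the same 5 libraries, and the values describe these classes.

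The wider pathway was read from a list of 61 further genes, of which 59 were in the tables and 35 passed the filter. Of 350 pairs of a gene and a class, 111 were called higher and 58 lower, where 23.2% and 13.4% of all pairs were. The higher calls fell to 70 with sums per collection and to 68 with UMIs split, and the lower calls to 35 without collection 1A and to 34 with UMIs split. Ntn5 and the netrin receptor Dcc were not analysed here. None of the 5 remaining ligand paralogues (Ntn3, Ntng1, Ntng2, Slit1, Draxin) passed the filter. Heparan sulphate proteoglycans and matrix partners, the cell surface and matrix molecules that slits and netrins bind, were the list with the most calls in fibroblast-like cells, 10 of 11 higher and 0 lower, with a median log2 fold change of 2.09 against 0.13 for all genes. The background in that class was 32.8% higher and 15.8% lower. The glypican genes Gpc6 (99.5 ± 5.06 CPM, adjusted p = 8.3e-66) and Gpc3 (89.4 ± 11.03 CPM, adjusted p = 1.3e-57) led it, at levels close to those of pericyte-like cells (92.7 ± 9.52 CPM each). In pericyte-like cells 4 of 11 were higher and 2 lower (background 13.9% and 7.2%), and Hspg2, which codes for perlecan, was lower (-2.01 ± 0.73, adjusted p = 0.030).

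In glia-like cells 8 of 11 of this list were higher and 0 lower (background 23.9% and 13.7%), led by the syndecan gene Sdc4 at 2084 ± 217 CPM (log2 fold change 3.68 ± 0.11, adjusted p = 2.8e-262). In smooth muscle-like cells 7 of 11 were higher and 0 lower. The background was 18.3% and 11.3% with TMM factors, and 20.6% and 7.83% with edgeR's relative log expression (RLE) factors. In lymphatic endothelial-like cells 3 of 11 were higher and 1 lower (background 19.9% and 13.9%): Sdc1 rose to 97.6 ± 21.5 CPM (2.93 ± 0.40, adjusted p = 3.9e-12) and Agrn to 91.8 ± 53.3 CPM (2.17 ± 0.39, adjusted p = 2.6e-07), and Sdc4 was lower (-3.72 ± 0.34, adjusted p = 6.9e-26). In blood endothelial-like cells 3 were higher and 2 lower (background 30.2% and 16.0%), the latter being Sdc4 (-2.82 ± 0.22) and Sdc2 (-1.27 ± 0.30). The 8 fibroblast markers summed to 754 and 1678 CPM in the lymphatic endothelial-like cells and to 1038 and 1169 CPM in the blood endothelial-like cells, and to the sums given with Ntn1 in the glia-like and smooth muscle-like cells. Their part in these levels was not tested.

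Of the other receptors, 4 of 13 in the tables passed the filter. Flrt3, whose protein binds UNC5 receptors, was called higher in dendritic-like cells (554 ± 153 CPM against 42.9 CPM in the next class, adjusted p = 3.2e-111), and its relative Flrt1 in glia-like cells (85.8 ± 10.5 CPM, adjusted p = 1.1e-24). Neo1, which codes for the netrin receptor neogenin, was called higher in smooth muscle-like cells (68.9 ± 6.36 CPM, adjusted p = 1.2e-10), followed by fibroblast-like cells at 21.9 CPM. Mcam, which codes for a cell adhesion molecule of pericytes and endothelium, was at 287 CPM in pericyte-like and 235 ± 10.2 CPM in blood endothelial-like cells (3.46 ± 0.19, adjusted p = 2.1e-72) and was lower in fibroblast-like cells (-1.71 ± 0.49, adjusted p = 0.0014).

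Cytoplasmic partners, the adaptor, GTPase and actin genes that act below these receptors, gave 20 tested genes. In blood endothelial-like cells 12 were higher and 0 lower, with a median log2 fold change of 0.81 against 0.05 for all genes, of which 30.2% were called higher and 16.0% lower in that class. Dock1, a Rac activator, was at 111 ± 10.6 CPM (2.37 ± 0.22, adjusted p = 2.9e-25), with 109 CPM in lymphatic endothelial-like cells. In the other 9 classes from 3 to 9 of the 20 were higher and from 2 to 5 lower. For all genes, 20.2% were called higher and 9.9% lower in dendritic-like cells, 29.0% and 15.4% in macrophage-like cells, 19.9% and 15.4% in B-like cells, and 24.3% and 15.9% in the lymphoid class of T, natural killer and innate cells. Ablim1 and the kinase gene Fyn were higher in B-like cells (2.80 ± 0.23 and 1.81 ± 0.24) and lower in macrophage-like (-2.45 ± 0.44 and -2.49 ± 0.34) and smooth muscle-like cells (-1.87 ± 0.53 and -1.52 ± 0.42). The Rac and Cdc42 effector kinase gene Pak1 was called higher in dendritic-like (160 ± 24.6 CPM), T, natural killer or innate lymphoid-like (93.3 ± 13.0 CPM) and macrophage-like cells (40.3 ± 4.32 CPM).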

How the data were processed

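The values the authors deposited are UMI counts, whole numbers for every gene in every barcode of 5 Drop-seq collections, and were not normalized. STAR 2.6 and the mm10 build are named per the submitters' processing notes, and the counting program, gene annotation, strand setting and barcode rule are not given in the sources used here. Total counts per collection ran from 1636550 to 3345732 UMIs.

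Barcodes under 300 genes (1263) or over 10% mitochondrial UMIs (667) were left out. Scrublet marked 20 of the remaining cells, 0.333%, too few for the caller to be taken as having worked, so the 5% of cells with the highest scores were also removed as an alternative. Cells were clustered with scanpy 1.11.5 (Python 3.11.15, 2000 variable genes, 30 components, resolution 1.0, and 0.5 within classes) without 68 guidance genes, the 9 genes among them. A cluster took a class name when at least 3 markers of a fixed list were above 2 times the median over clusters, with 10 CPM added to both, and in at least 10% of its cells, a rule set after the clusters were seen. The 9 genes and the lists were chosen with earlier results of these data known.

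UMI sums per class and biological replicate, from 73009 to 2365538 UMIs in the tested classes, were fitted with edgeR 4.0.16 (R 4.3.3, TMM factors, quasi-likelihood test, each class against the mean of the others). The replicate was a block, because the class sums of 1 replicate come from the same collections. All p are two-sided, adjusted by Benjamini-Hochberg over all genes tested, with a threshold of 0.05. Standard errors are the log2 fold change over the square root of F. DESeq2 1.42.0 was an alternative, and the code was tested on simulated data. Fold changes are printed only where every class held a UMI. Binomial (scipy 1.17.1) and Poisson intervals and floors of 3 counts cover counting error only. All 9 genes are named, of the other guidance genes those among the 2 called genes of largest absolute log2 fold change per class and direction, and for likeness the 3 genes of highest r among those with a mean of at least 50 CPM in their highest class.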

Additional observations from a re-analysis of the deposited data

Results flagged for a closer look

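Robo4 in enteric glia-like cells was flagged because 1 collection stood apart from the other 4: it was at 7.69 CPM in collection 1A, a single UMI, and at 0 in the rest. A single UMI beside zeros always raises this flag, so the flag shows nothing further. It was the 1 flag among 34 such tests, and the chance rate of about 1 in 20 does not hold for counts this low.

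The 667 barcodes left out for over 10% mitochondrial UMIs, with 905687 UMIs in all, held counts of all 9 genes above the limit that a count of 0 allows. Their levels were 42.0 CPM for Ntn1, 26.5 for Ntn4, 4.42 for Slit2, 27.6 for Slit3, 5.52 for Robo1, 18.8 for Robo2, 25.4 for Robo4, 9.94 for Unc5b and 11.04 for Unc5c. These barcodes were used only in the alternative with no mitochondrial limit.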

How the results depend on the processing

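With 2 biological replicates, low counts limited the calls, and clusters and tests shared their cells. Scaling by edgeR's RLE factors in place of TMM moved the median of all genes by over 0.1 (log2) in 5 of 21 contrasts (-0.13 to 0.14). It moved the share of higher among called genes by over 10 points in 1, smooth muscle-like cells. The alternative without a mitochondrial limit formed no dendritic class, and that with UMIs split no pericyte or dendritic class, so that pericyte-like and smooth muscle-like cells could not be compared there. It formed 4 fibroblast clusters, and a resolution of 0.3 formed 3 fibroblast and 2 blood endothelial clusters, each numbered by the cluster that gave most of its cells.

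Counted over every single gene result and every alternative, 521 values kept their direction and side of the threshold, 58 lost it, 5 passed it newly and 3 reversed: Ntn1 in smooth muscle-like cells (-1.06, UMIs split), Slit3 in fibroblast cluster 1 (-0.16, resolution 0.3) and Robo4 in blood endothelial cluster 1 (-0.46, resolution 0.3). For Ntn4 in fibroblast cluster 1 DESeq2 gave no adjusted p. The causes were not tested.

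With sums per collection, the 13 higher calls among classes became 6, the 11 among fibroblast clusters 5 and the 7 lower there 3, the 0 higher among blood endothelial clusters 1, the 3 between pericyte-like and smooth muscle-like cells 1, and the 111 higher guidance pairs 70. With UMIs split they were 7, 6, 4 (lower fibroblast) and 68, and the 58 lower guidance pairs became 34. The 3 lower class calls became 1 with no filter, without the highest doublet scores, with a minimum of 500 genes, with a mitochondrial limit of 5% and at resolution 1.5, 0 with a minimum of 200 genes, and 7 with no mitochondrial limit. The 11 higher fibroblast calls became 6 with DESeq2 and 6 at resolution 0.3. Without the highest doublet scores, 1 higher and 1 lower blood endothelial call appeared.

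Leaving out 1 collection gave 0 to 2 lower class calls, 6 to 10 higher fibroblast calls, 0 to 1 higher blood endothelial calls and 35 to 54 lower guidance pairs.

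Without the replicate block, class calls were 13 higher and 3 lower, fibroblast calls 10 and 7, blood endothelial calls 0 and 0, pair calls 2 and 3, and guidance pairs 108 and 57. Robo1 in fibroblast cluster 5 (adjusted p = 0.0507) was the 1 single call lost.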
